A study of Mus musculus with 8 samples.

Results

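Fat cells carry receptors for adenosine, prostaglandins, lactate, ketone bodies and peptide hormones that, like the adrenergic receptors, act on adenylyl cyclase. The genes described here are 10 such receptors, chosen by name as Gs- or Gi-coupled receptors of fat other than the adrenergic ones, among 54385 genes in the table. Those coupled to Gi are Adora1, Ptger3, Hcar1 and Hcar2, and those coupled to Gs are Adora2a, Adora2b, Ptger4, Gpr3, Sctr and Mc2r. Their transcript levels were compared in brown fat of mice with and without adipocyte Adcy3, the gene of adenylyl cyclase 3.

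The Gs protein switches adenylyl cyclase on and the Gi protein holds it back, so the cyclic AMP of a fat cell depends on which receptors of each kind are occupied. In adipocytes cyclic AMP activates protein kinase A, which drives lipolysis and, in brown fat, heat production. Adenosine, lactate, ketone bodies and prostaglandin E2 acting through Gi-coupled receptors are known brakes on lipolysis.

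The samples were interscapular brown fat of C57BL/6N mice at 20 weeks of age on chow, in 2 groups of 4 libraries. Mice of both groups carried Adcy3 fl/fl, so the controls, labelled WT, are floxed mice and not mice with an unaltered gene. The knockout group (cKO) carried in addition 1 Cre allele driven by the promoter of Adipoq, the adiponectin gene, which is active in adipocytes, so other cells of the tissue keep Adcy3. WT replicate 4 is a control by its title, but its genotype entry lists the Cre allele. The labels name the depot as interscapular, while the design text calls it inguinal. Nothing in the labels says that each library came from a separate mouse, so the p-values reflect only how far these libraries differ among themselves, which may be technical.

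Libraries held 10713043 to 32437214 estimated counts, WT replicate 1 having the most. Values are in CPM, counts scaled to a common library size, after TMM scaling. Adcy3, the deleted gene, stood at 112, 118, 61.7 and 118 CPM in WT replicates 1 to 4 and at 17.95, 20.9, 25.3 and 21.5 CPM in cKO replicates 1 to 4, a log2 fold change of -2.26 (95% interval -2.72 to -1.80, edgeR adjusted p = 0.000925). The library with the Cre entry, WT replicate 4, was at the WT level. All 8 adipocyte markers and all 8 brown adipocyte markers were measured, with summed levels of 12890 to 18991 and 4005 to 6949 CPM. Of the 8 brown adipocyte markers, 5 had a higher fitted level in cKO, and the median log2 fold change was 0.33. An unadjusted edgeR p under 0.05 was found for 3 of these 8, against 5.6% of all genes tested. None of them had an adjusted p under 0.05, against 0.0687% of all genes tested. Markers of skeletal muscle differed most between libraries of a group. The sum over 9 muscle genes was 68.0, 1871, 391 and 7783 CPM in WT and 9943, 2918, 174 and 2214 CPM in cKO. All 9 had a higher fitted level in cKO, and none had an unadjusted p under 0.05.

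The receptors spanned a wide range of levels. To compare genes, CPM was divided by the exon length in kilobases. Adora1, the high-affinity adenosine receptor that restrains lipolysis, was the most abundant at a mean of 21.4 CPM per kb over the 8 libraries (range 17.6 to 25.6), above 89.9% of the genes tested. Ptger3, a prostaglandin E2 receptor, followed at 12.1 CPM per kb (8.23 to 18.7). Hcar1, the lactate receptor, stood at 8.14 CPM per kb (4.57 to 14.3). The most abundant 3 of the chosen receptors are thus all coupled to Gi, and the median tested gene had 2.84 CPM per kb.

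Of the chosen receptors coupled to Gs, Adora2a and Sctr were the most abundant. Adora2a, an adenosine receptor that raises cyclic AMP, stood at 2.89 CPM per kb (2.28 to 4.28). Sctr, the secretin receptor, stood at 2.88 CPM per kb (1.96 to 3.75). Receptors that were not chosen are left out of this order, among them Pth1r, the parathyroid hormone receptor, at 12.4 CPM per kb. Those were not sorted by coupling, so this order does not show which kind, Gs or Gi, is the more abundant in the tissue. Hcar2, the receptor for niacin and beta-hydroxybutyrate, had 1.88 CPM per kb (1.17 to 3.32), and Mc2r, the corticotropin receptor, 1.44 CPM per kb (0.857 to 2.18). Ptger4, the Gs-coupled prostaglandin E2 receptor, was at 0.515 CPM per kb (0.352 to 0.734). Gpr3, a receptor that signals through Gs without a known need for ligand, had 0.188 CPM per kb (0.0496 to 0.472). Adora2b, the low-affinity adenosine receptor, was lowest at 0.0992 CPM per kb (0 to 0.215).

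Most neighbours in this order were not separated by their spread. Ranges over the 8 libraries did not overlap at 2 of the 9 steps, from Hcar1 to Adora2a and from Mc2r to Ptger4. Adora1 was above Ptger3 in 8 of 8 libraries, although their ranges overlap. Adora2a was above Sctr in 5 of 8 libraries, Ptger3 above Hcar1 in 5 of 8, and Gpr3 above Adora2b in 5 of 8. Within the tissue, fewer cells that carry a receptor and less of its RNA per cell cannot be told apart.

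**Figure D1:**
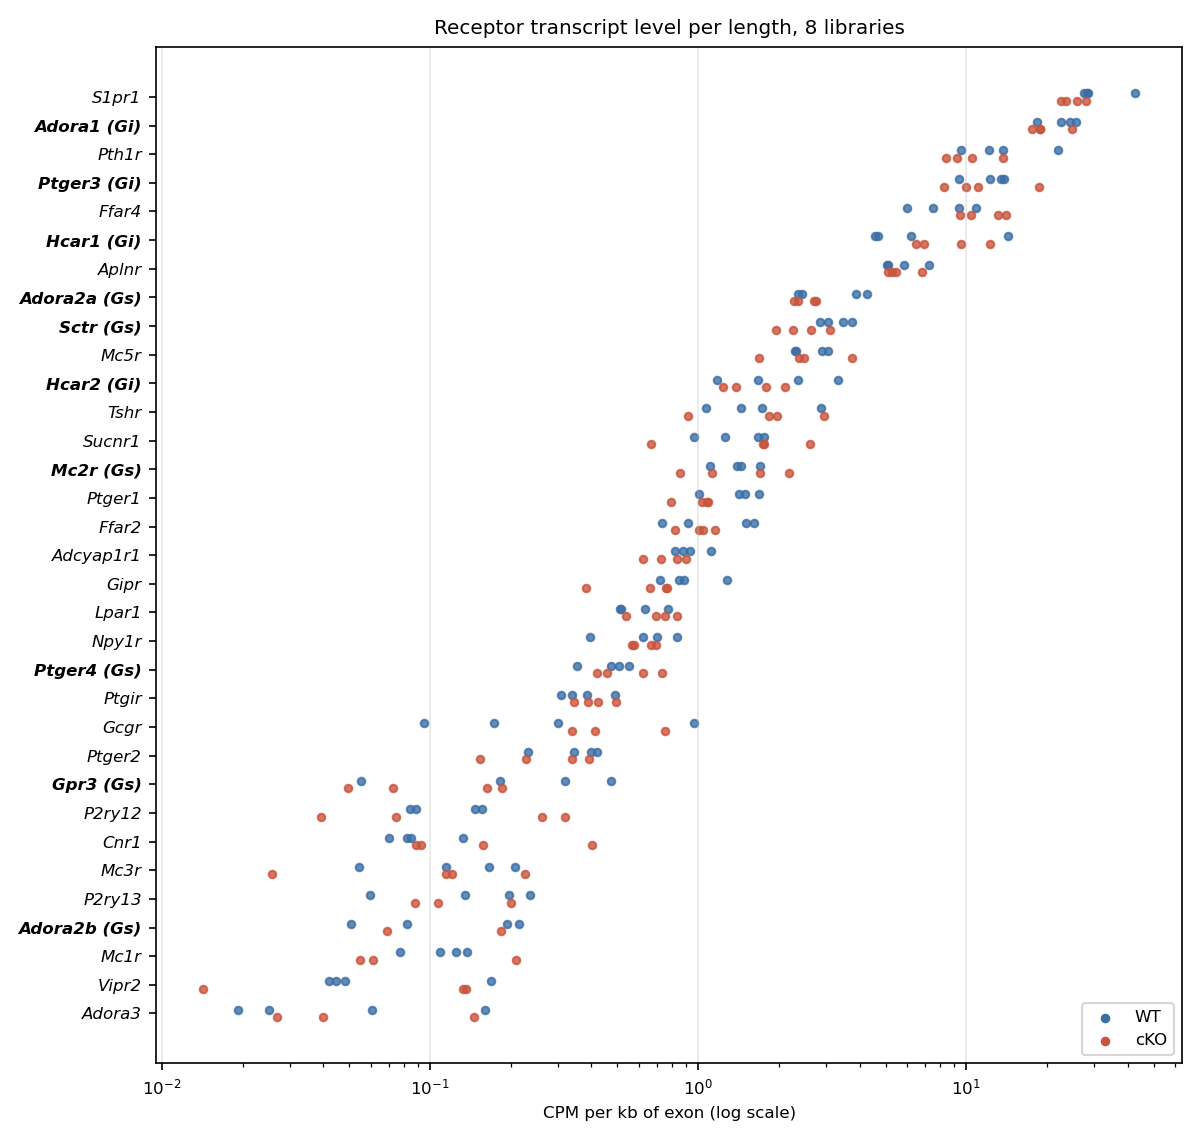
Transcript level per exon length (CPM per kb, log axis) of the 10 receptors (bold) and of the 32 further receptors, with 1 point per library, coloured by group; 33 of 42 receptors are drawn, 9 with a mean under 0.05 CPM per kb are not, and 7 values at 0 have no place on the log axis. Adora1, Ptger3 and Hcar1 lie at 21.4, 12.1 and 8.14 CPM per kb on average, above the other 7 members.

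Set beside 32 further non-adrenergic receptors, most of them coupled to Gs or Gi, Adora1 ranked 2nd of 42, behind S1pr1, a sphingosine 1-phosphate receptor, at 28.4 CPM per kb. Pth1r, the parathyroid hormone receptor, at 12.4 CPM per kb was 3rd and Ptger3 was 4th. Ffar4, the receptor for long-chain fatty acids, at 10.1 CPM per kb was 5th and Hcar1 was 6th.

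None of the 10 receptors passed the test between the groups. Of the 10, 8 passed the filter on low counts and were tested, and 0 of these had an edgeR adjusted p under 0.05, against 10 of 14553 genes, or 0.0687% of those tested. At an unadjusted p under 0.05 there were 0 of 8 members, against 5.6% of all genes tested. In 0 of 8 the groups did not overlap, against 3.5% of all genes tested. Fitted changes ran from -0.40 to 0.25 on the log2 scale, 3 positive and 5 negative, with a median of -0.11 beside 0.01 for all genes tested. The 4 Gi-coupled receptors, all tested, had a median of -0.11, and the 4 tested Gs-coupled receptors one of -0.15.

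**Figure D2:**
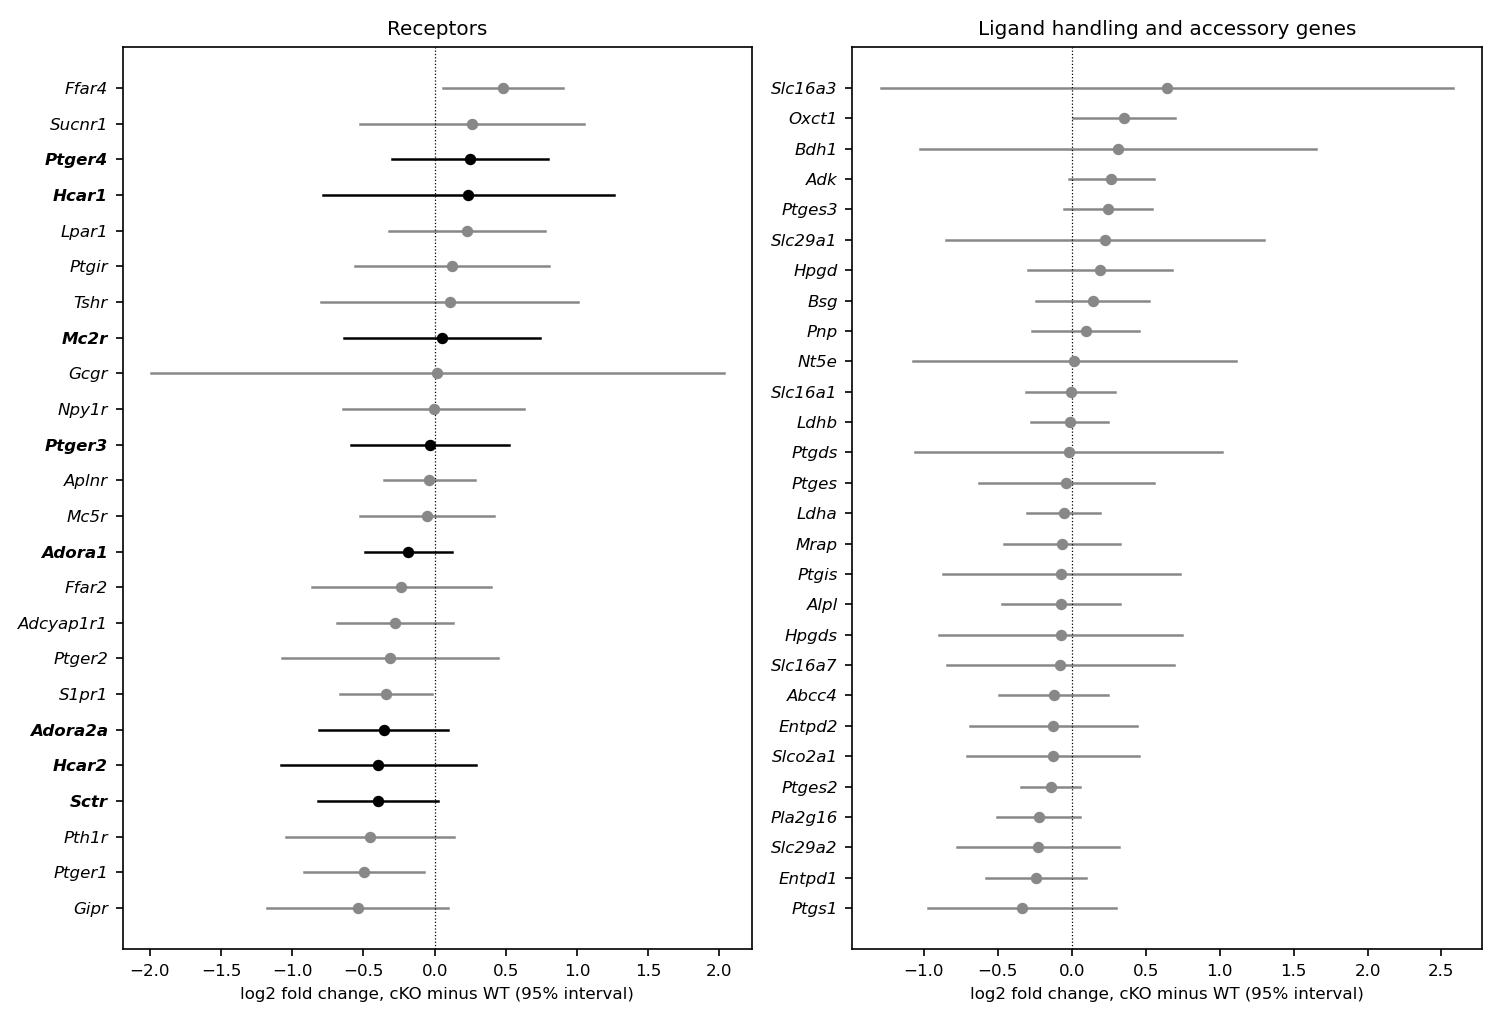
Log2 fold change, cKO against WT, with 95% intervals from the edgeR fit, of the 8 tested members (black, bold) among the 16 tested further receptors (grey, left panel) and of 28 ligand and accessory genes (right panel). Every interval of a member covers 0, and their fitted values run from -0.40 for Sctr and Hcar2 to 0.25 for Ptger4.

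Among the Gi-coupled receptors, Adora1 stood at 131, 148, 141 and 106 CPM in WT replicates 1 to 4 and at 143, 109, 109 and 102 CPM in cKO replicates 1 to 4. WT replicate 4 was low and cKO replicate 1 high for their groups, and the groups overlapped. The means were 131 ± 18.5 and 116 ± 18.6 CPM (SD, n = 4 each), with a log2 fold change of -0.18 (95% interval -0.49 to 0.12, edgeR adjusted p = 0.901). Those libraries also have the largest muscle sums of their groups, 7783 and 9943 CPM. Without both, the log2 fold change was -0.39 (edgeR adjusted p = 0.512, unadjusted p = 0.00864), a value obtained after the data had been seen. They hold the lowest WT and the highest cKO value of Adora1, so a more negative change follows from leaving them out. The part of muscle in the Adora1 values was not tested. Adora1 (chromosome 1, 134199223 to 134235431, minus strand, GRCm38) shares 1162 exon bases with Mybph, a muscle gene on the other strand. Mybph itself was at 0.0622 to 1.80 CPM, against 102 to 148 CPM for Adora1.

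Ptger3 stood at 78.8, 76.9, 70.0 and 53.5 CPM in WT and at 106, 46.8, 56.8 and 62.9 CPM in cKO. The cKO libraries enclosed all 4 WT libraries, with replicate 1 highest and replicate 2 lowest of the 8. Means of 69.8 ± 11.5 and 68.2 ± 26.3 CPM (SD, n = 4 each) gave a log2 fold change of -0.03 (95% interval -0.58 to 0.52, edgeR adjusted p = 0.992). Without cKO replicate 1 it was -0.32 (unadjusted p = 0.0625), and without cKO replicate 2 it was 0.11. Left without WT replicate 4 and cKO replicate 1, the difference was -0.43 (edgeR adjusted p = 0.524, unadjusted p = 0.0101). This setting was added after the data had been seen. It removes the lowest WT and the highest cKO value of Ptger3, so a lower difference follows from the choice. cKO replicate 1 also had the highest sum of 7 fibroblast and preadipocyte markers, 702 CPM, against 388 to 581 CPM in the other libraries, and the part of these cells was not tested. The gene (chromosome 3, 157566892 to 157645888, plus strand) has 3 annotated transcripts, whose receptor forms are not separated in counts per gene.

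Hcar1, through which lactate lowers cyclic AMP in fat cells, gave 46.9, 20.5, 15.3 and 15.0 CPM in WT and 22.9, 31.5, 40.3 and 21.4 CPM in cKO. WT replicate 1 was the highest of the 8 libraries, while the other WT libraries lay below all cKO libraries. The WT mean was 24.4 ± 15.2 CPM and the cKO mean 29.0 ± 8.74 CPM (SD, n = 4 each), a log2 fold change of 0.24 (95% interval -0.79 to 1.26, edgeR adjusted p = 0.969). Without WT replicate 1 the log2 fold change was 0.78, with an unadjusted p of 0.00652 and an edgeR adjusted p of 0.711. Since that library held the highest Hcar1 value, a larger positive change follows from leaving it out. That library was also the most deeply sequenced and had the lowest muscle sum. Kit, from a list of 6 mast cell markers, was highest there at 69.9 CPM, against 11.8 to 32.2 CPM elsewhere, while the other 5 summed to 2.80 CPM, within the 2.38 to 3.22 CPM of the other libraries. The part of depth and muscle in the Hcar1 value was not tested.

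Hcar2 stood at 6.41, 3.22, 4.57 and 2.26 CPM in WT and at 3.46, 2.40, 4.06 and 2.67 CPM in cKO. WT replicate 1 was again highest, WT replicate 4 was lowest, and the cKO libraries fell between them. The means were 4.11 ± 1.80 and 3.15 ± 0.757 CPM (SD, n = 4 each), with a log2 fold change of -0.40 (95% interval -1.08 to 0.29, edgeR adjusted p = 0.901). Without WT replicate 1 it was -0.09. Hcar1 and Hcar2 are single-exon neighbours on the minus strand of chromosome 5 (123876736 to 123880020 and 123863570 to 123865499), 11236 bases apart, and share no 31-base sequence with another transcript. The ratio of Hcar1 to Hcar2 per length was 4.30, 3.75, 1.97 and 3.90 in WT and 3.89, 7.71, 5.83 and 4.70 in cKO, groups that overlapped.

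**Figure D3:**
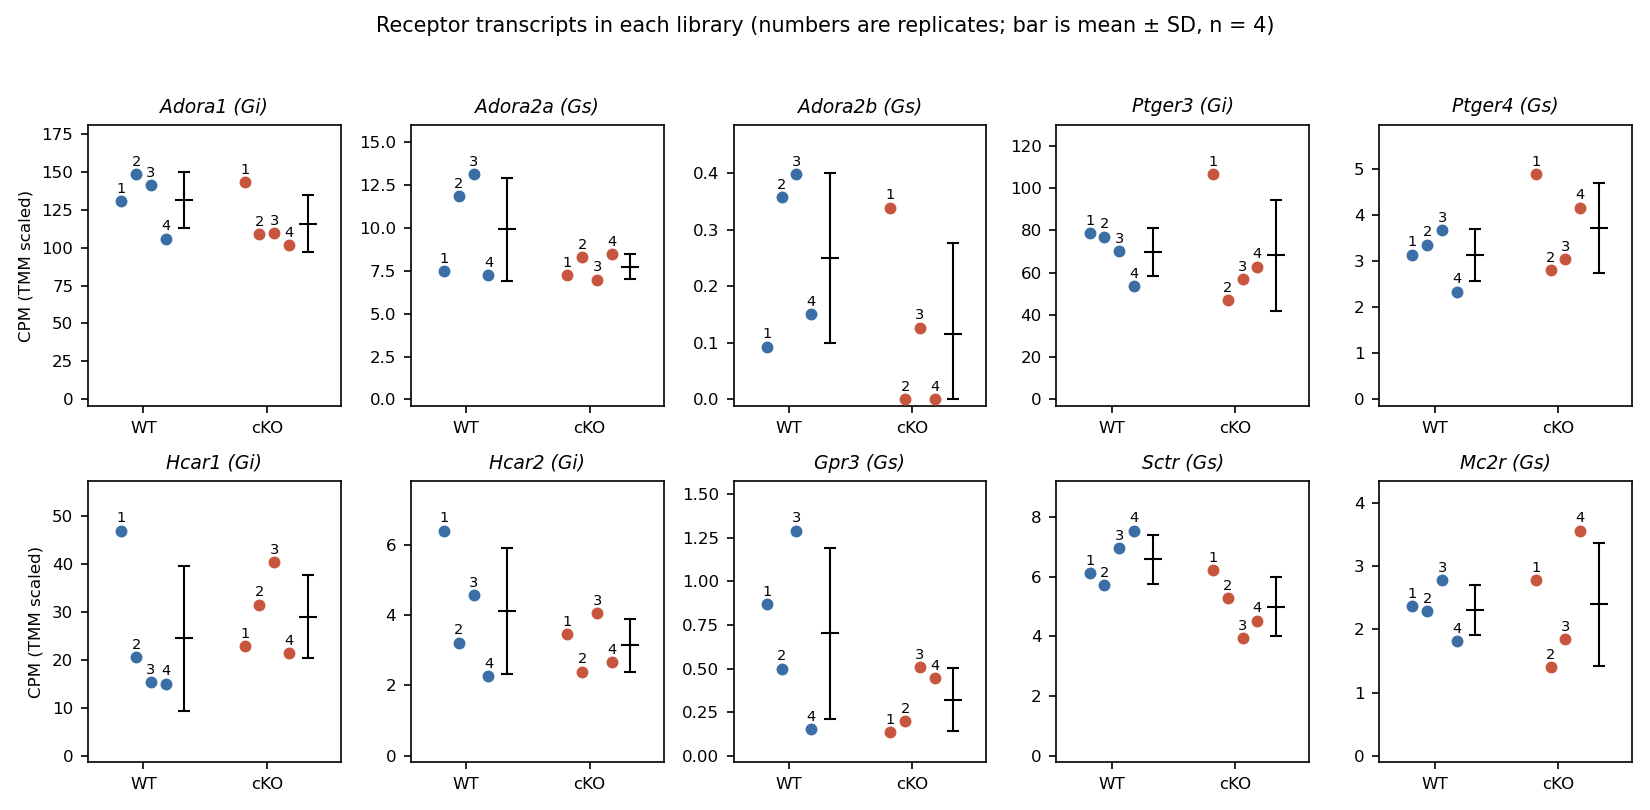
CPM of each of the 10 receptors in the 4 WT and 4 cKO libraries, 1 panel per gene with its own axis; points are libraries, and bars give the mean and SD, the lower bar for Adora2b in cKO ending at 0. Hcar1 in WT replicate 1, at 46.9 CPM, stands above the other 3 WT libraries at 15.0 to 20.5 CPM, and every panel of a tested receptor shows overlapping groups.

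Of the Gs-coupled receptors, Adora2a (chromosome 10, 75316877 to 75334784, plus strand) stood at 7.50, 11.9, 13.1 and 7.25 CPM in WT and at 7.25, 8.29, 6.98 and 8.46 CPM in cKO. WT replicates 2 and 3 were high, and WT replicates 1 and 4 lay within the cKO range. Means of 9.93 ± 3.00 and 7.75 ± 0.739 CPM (SD, n = 4 each) gave a log2 fold change of -0.36 (95% interval -0.81 to 0.09, edgeR adjusted p = 0.890). Leaving out each library in turn gave -0.48 (without WT replicate 1) to -0.19 (without WT replicate 3, its highest library). Adora2a is also expressed by endothelial cells. The sum of 8 endothelial markers was 521 to 808 CPM in WT and 509 to 601 CPM in cKO, highest in WT replicate 3, and 0 of the 8 were higher in cKO by their fitted value. The part of endothelial cells was not tested.

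Sctr (chromosome 1, 120006894 to 120063536, plus strand), through which secretin can activate brown fat after a meal, stood at 6.13, 5.72, 6.95 and 7.55 CPM in WT and at 6.23, 5.29, 3.93 and 4.53 CPM in cKO. The lowest 3 libraries were all cKO, and cKO replicate 1 lay among the WT libraries. It had the smallest p of the members, with means of 6.59 ± 0.823 and 4.997 ± 0.994 CPM (SD, n = 4 each), a log2 fold change of -0.40 (95% interval -0.82 to 0.02), an unadjusted p of 0.0611 and an edgeR adjusted p of 0.886. Without cKO replicate 1 the log2 fold change was -0.52 (unadjusted p = 0.0224, edgeR adjusted p = 0.600). That library held the highest cKO value of Sctr, so a more negative change follows from leaving it out. With WT replicate 4 counted as cKO, as its genotype entry would place it, the change was -0.18. WT replicate 4 held the highest Sctr value of all libraries, so a smaller decrease follows from moving it.

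Ptger4 (chromosome 15, 5206661 to 5244187, minus strand) gave 3.14, 3.36, 3.68 and 2.34 CPM in WT and 4.88, 2.80, 3.05 and 4.16 CPM in cKO. cKO replicates 1 and 4 were highest, and the other cKO libraries lay within the WT range. Means were 3.13 ± 0.570 and 3.72 ± 0.973 CPM (SD, n = 4 each), and the log2 fold change was 0.25 (95% interval -0.30 to 0.80, edgeR adjusted p = 0.926). The gene shares 82 exon bases with Ttc33 and 1015 with the pseudogene Gm15937, both on the other strand, so its count is uncertain to that extent. Mc2r (chromosome 18, 68406907 to 68429320, minus strand) gave 2.36, 2.29, 2.78 and 1.81 CPM in WT and 2.78, 1.40, 1.84 and 3.56 CPM in cKO. The cKO libraries enclosed the WT libraries. Means were 2.31 ± 0.397 and 2.39 ± 0.968 CPM (SD, n = 4 each), and the log2 fold change was 0.05 (95% interval -0.63 to 0.74, edgeR adjusted p = 0.990). Its partner Mrap, the accessory protein that Mc2r needs to reach the cell surface, averaged 98.1 ± 24.4 CPM over WT libraries and 93.8 ± 16.8 CPM over cKO libraries (SD, n = 4 each).

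Gpr3 and Adora2b were too low to be tested. Gpr3 had 28, 7, 26 and 2 counts in WT and 2, 2, 8 and 6 counts in cKO, that is 0.871, 0.500, 1.29 and 0.151 CPM and 0.136, 0.200, 0.508 and 0.445 CPM. WT replicates 1 and 3 were high, and WT replicates 2 and 4 lay within the cKO range. In a fit without the filter its log2 fold change was -1.15 (95% interval -2.35 to 0.06, unadjusted p = 0.0618, edgeR adjusted p = 0.727). Adora2b (chromosome 11, 62248984 to 62266453, plus strand) had 3, 5, 8 and 2 counts in WT and 5, 0, 2 and 0 counts in cKO. Neither gene had enough reads for a difference to be judged at this depth.

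Gpr3 (chromosome 4, 133209340 to 133212536, minus strand) overlaps 204 bases of exon with Cd164l2, a gene of the other strand. Cd164l2 was at 1.49, 1.07, 2.33 and 0.906 CPM in WT and at 0.610, 0.999, 0.635 and 0.594 CPM in cKO, with a fitted change of -1.07 on the log2 scale (95% interval -1.94 to -0.19, edgeR adjusted p = 0.882, unadjusted p = 0.0206). The strand setting of the counting is not given in the sources used here, so reads of the shared bases cannot be told apart.

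The promoter of Gpr3 is shown because it alone among the receptors with a window matched TGACG, the core of the cyclic AMP response element through which CREB acts. RefSeq promoter windows of 300 bases (GRCm38.p6, 250 before and 50 from the start) were given for 6 of the 10 receptors, in 7 windows, and both strands were searched. The core lay in 1 of 7 windows, against 20.8% of 32851 windows of all genes. The whole element TGACGTCA, which holds the core, lay in 0 of 7, against 1.79% of all windows. CCAAT lay in 3 of 7 windows (37.4% of all) and TATAAA in 0 of 7 (13.6% of all). These are matches of letters, not measured binding. In the 250 bases before the Gpr3 start, chr4:133212537-133212786, read on the minus strand, capitals mark the 2 matches, at -196 and -40 from the start, which spell the core on the opposite strand.
Gpr3: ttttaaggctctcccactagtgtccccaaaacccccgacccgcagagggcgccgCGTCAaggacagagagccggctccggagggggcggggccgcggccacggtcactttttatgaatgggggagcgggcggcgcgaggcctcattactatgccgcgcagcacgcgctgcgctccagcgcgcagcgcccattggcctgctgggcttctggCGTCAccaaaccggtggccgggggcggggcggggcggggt

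The balance between the classes, as the Gi-coupled share of the summed CPM per kb of the 10 receptors, was 87.4%, 83.9%, 80.4% and 81.3% in WT and 86.5%, 85.0%, 87.7% and 82.1% in cKO. Means were 83.2 ± 3.16% and 85.3 ± 2.43% (SD, n = 4 each), and the groups overlapped. The share depends on the 10 receptors chosen and is not that of all receptors of the tissue. It leaves out S1pr1 and Pth1r, at 28.4 and 12.4 CPM per kb. The Gs-coupled sum was 8.80 ± 1.39 CPM per kb in WT and 7.22 ± 1.00 in cKO, and the Gi-coupled sum was 44.6 ± 8.56 and 42.5 ± 7.12 (SD, n = 4 each).

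The low values of the WT group shared a library. WT replicate 4, which has the Cre entry and the largest muscle sum of its group, was the lowest WT library for 8 of the 10 members and for 7 of the 8 tested ones, the exception among these being Sctr. Over all genes tested, the same library was lowest of the WT group in 24.0%. The pattern was noticed after the values were seen, and the part of the Cre entry and of muscle in it was not tested. Without that library no member was called, and 2 of the 8 tested members had a positive log2 fold change. The values were -0.27 for Adora1, -0.47 for Adora2a (unadjusted p = 0.0395, edgeR adjusted p = 0.789), -0.58 for Hcar2 and -0.32 for Sctr. Ptger3 was at -0.13 and Ptger4 at 0.15. For Adora1, Adora2a and Hcar2 that library was the lowest of WT, so lower changes follow from leaving it out. In cKO, replicate 2 was lowest for 4 of the 8 tested members, against 25.3% of all genes tested.

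The high values were spread over more libraries. WT replicate 1 was highest for Hcar1 and Hcar2, WT replicate 2 for Adora1, WT replicate 3 for Adora2a and WT replicate 4 for Sctr. cKO replicate 1 was highest for Ptger3 and Ptger4, and cKO replicate 4 for Mc2r. The ratio of the highest to the lowest library was smallest for Adora1, at 1.46, and largest for Hcar1, at 3.12.

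**Figure D4:**
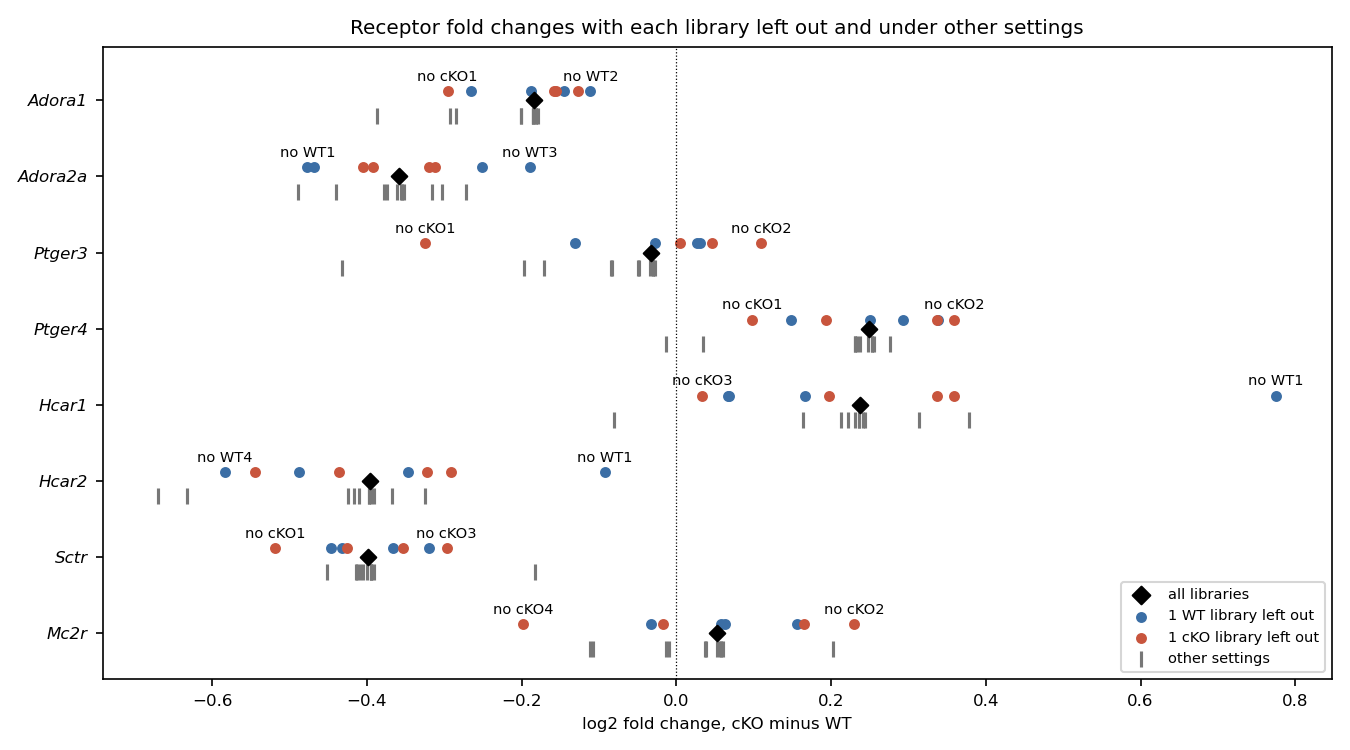
Log2 fold change of the 8 tested receptors, cKO against WT, with all libraries (diamonds), with each of the 8 libraries left out in turn (points, coloured by group) and under the other settings (grey ticks). Hcar1 moves most, to 0.78 without WT replicate 1, and Ptger3 and Mc2r take either sign with a library left out; under the other settings Hcar1 (-0.081), Ptger4 (-0.013) and Mc2r (-0.11) also fall below 0.

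Of the 32 further receptors, 16 were tested and 0 were called, against 0.0687% of all genes tested. There were 6 positive and 10 negative fitted changes, with a median of -0.05. At an unadjusted p under 0.05 there were 3 of the 16, against 5.6% of all genes tested. S1pr1 averaged 96.6 ± 22.5 CPM over WT libraries and 76.2 ± 7.46 CPM over cKO libraries (SD, n = 4 each), a log2 fold change of -0.34 (95% interval -0.67 to -0.02, edgeR adjusted p = 0.884). Leaving out each library in turn gave -0.39 (without WT replicate 4) to -0.16 (without WT replicate 3, its highest library at 130 CPM). WT replicate 3 also had the largest sum of endothelial markers, 808 CPM, and the part of endothelial cells was not tested. Ffar4 stood at 11.8 ± 2.95 and 16.5 ± 3.04 CPM, a log2 fold change of 0.48 (95% interval 0.06 to 0.90, edgeR adjusted p = 0.882). Ptger1, a prostaglandin E2 receptor better known for signalling through Gq, stood at 7.66 ± 1.56 and 5.44 ± 0.764 CPM. Its log2 fold change was -0.50 (95% interval -0.92 to -0.07, edgeR adjusted p = 0.882). Much of its sequence also lies in other transcripts, so its count is uncertain. The abundant receptors, Pth1r at 42.0 ± 15.8 and 30.6 ± 6.79 CPM and Aplnr, the apelin receptor, at 21.6 ± 3.81 and 21.0 ± 2.98 CPM, had unadjusted p above 0.05.

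Genes that make, move or break down the ligands, or assist the receptors, were 35 in the table. Of these, 29 were tested and 0 were called, against 0.0687% of all genes tested. Fitted changes were positive in 11 and negative in 18, with a median of -0.04. In adenosine handling 8 of 9 were tested, 4 positive and 4 negative. Adk, the kinase that clears adenosine, averaged 56.6 ± 10.1 CPM over WT libraries and 68.1 ± 5.71 CPM over cKO libraries (SD, n = 4 each, unadjusted p = 0.0663). Pnp, which breaks down inosine, stood at 52.6 ± 3.37 and 56.2 ± 14.0 CPM. The nucleoside transporter Slc29a1 stood at 43.9 ± 18.3 and 51.1 ± 19.6 CPM, and the phosphatase Alpl at 17.7 ± 4.22 and 16.8 ± 2.93 CPM.

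In prostaglandin handling 11 of 13 were tested, 2 positive and 9 negative, with a median of -0.08. Pla2g16, the phospholipase of adipocytes that releases arachidonic acid, averaged 210 ± 10.5 CPM over WT libraries and 180 ± 30.4 CPM over cKO libraries (SD, n = 4 each). Ptges3 stood at 95.6 ± 8.01 and 113 ± 20.2 CPM, and the exporter Abcc4 at 24.5 ± 5.17 and 22.5 ± 3.80 CPM. Ptges2 was the single gene of the 29 whose groups did not overlap, a share like the 3.5% of all genes tested. It stood at 66.2 ± 3.05 and 60.0 ± 1.85 CPM, with a log2 fold change of -0.14 (95% interval -0.34 to 0.06, edgeR adjusted p = 0.896).

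Ldha, which makes lactate from pyruvate, averaged 1160 ± 117 CPM over WT libraries and 1116 ± 62.4 CPM over cKO libraries (SD, n = 4 each). Ldhb stood at 350 ± 39.4 and 347 ± 35.8 CPM, the lactate transporter Slc16a1 at 198 ± 34.1 and 197 ± 22.3 CPM, and its partner Bsg at 348 ± 61.5 and 384 ± 90.1 CPM. All 6 lactate genes were tested, 2 positive and 4 negative. Oxct1, which opens the breakdown of ketone bodies, stood at 177 ± 33.7 and 226 ± 37.8 CPM, a log2 fold change of 0.35 (95% interval 0.01 to 0.70, unadjusted p = 0.0466, edgeR adjusted p = 0.884). Bdh1, which interconverts them, stood at 1.94 ± 1.06 and 2.33 ± 1.59 CPM. Of the peptide ligand and accessory genes, Mrap alone was tested. Pomc, which encodes the corticotropin precursor, had 2 to 10 counts per library and Mrap2, a relative of Mrap, 0 to 13. Sct, the secretin gene, had 0 counts in 7 libraries and 4 counts in cKO replicate 1.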

How the data were processed

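Polyadenylated RNA of brown fat was sequenced in 8 libraries, 4 per group, grouped by title. The authors deposited 1 table of estimated counts per gene. StringTie, Salmon, edgeR and the build GRCm38 are named in the submitters' processing notes. Versions, the annotation, the strand setting and any filter were not given in the sources used here. Reads that fit several transcripts are apportioned in such estimates, so overlapping genes are uncertain. Libraries were made with an NEBNext kit for RNA, per the labels' protocols.

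Counts were rounded to whole numbers. GENCODE M21 (GRCm38) named 54131 of 54385 identifiers (99.5%) and gave exon lengths. edgeR's filterByExpr (minimum count 10) kept 14553 genes, TMM factors scaled the libraries, and cKO was tested against WT by the quasi-likelihood F test of edgeR 4.0.16 in R 4.3.3 (robust), adjusted by Benjamini-Hochberg over all tested genes at 0.05. The script was tested on simulated data. No pair of libraries within a group agreed within sampling noise (smallest chi-square per degree of freedom 14.5). Depth, 10713043 to 32437214 counts, set the precision of low genes.

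The members and lists were chosen with earlier results of these data known. All 10 members and Adcy3 are named. From the further lists the named genes are those called, those with an unadjusted p under 0.05, and the 4 with the highest mean CPM of the receptor list and of each ligand sub-list. S1pr1 and Ffar4 qualify by both. A gene that this rule would name is not reported here. Mybph, Cd164l2, Ttc33 and Gm15937, which share bases with members, and the marker Kit were named after their values were seen. Alternatives were DESeq2 (1.42.0), limma-voom (limma 3.58.1), other size factors and filters, WT replicate 4 moved to cKO, a replicate block, leaving out each library, mitochondrial genes removed and, added after the data were seen, the libraries with the most muscle RNA of each group left out. The share of 31-base sequences in other genes was computed with Python 3.11.15. Protein sequences and the promoters of 4 members were not used here.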

Additional observations from a re-analysis of the deposited data

Results flagged for a closer look

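Adcy3 in WT replicate 3 stood at 61.7 CPM, far from the other WT libraries at 112 to 118 CPM by Dixon's test for 4 samples, and above all cKO libraries. In all, 22 groups of 4 libraries were looked at in this way, and chance marks about 1 in 20. Hcar1 in WT replicate 1 fell just short of the critical value of 0.829, its gap to the next library being 0.828 of the range.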

How the results depend on the processing

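No member was called under any of 19 alternatives, nor was any gene of the further receptor and ligand lists. Adora1, Adora2a, Hcar2 and Sctr kept a negative sign in all 19. The count of all genes called, 10, became 46 with the DESeq2 Wald test, 93 with no count filter and 1 with WT replicate 4 moved to cKO, and stayed within 1.5 times of 10 in the other 16. The causes were not tested. Adcy3 was called in 17 of the 19. With the replicate block its log2 fold change was -2.23 (edgeR adjusted p = 0.225), and with WT replicate 4 moved it was -1.26 (edgeR adjusted p = 0.747).

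The labels do not say whether the replicate numbers pair the samples. Correlations of deviations between same-numbered libraries were -0.46, 0.03, 0.41 and 0.0016 for replicates 1 to 4, and 1 of the 4 numbers matched best with itself. These values show no pairing but cannot exclude one, because differences in tissue content such as muscle also enter them. With the replicate block, 7 genes were called.

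The following log2 fold changes took the other sign. With WT replicate 4 moved to cKO, Hcar1 was -0.081, Mc2r -0.11, Bsg -0.0054 and Abcc4 0.10. With the replicate block, Mc2r was -0.0090 and Slc16a1 0.0012. With limma-voom, Mc2r was -0.014 and Slc16a1 0.0037, and with library quality weights Ldhb was 0.045, Mrap 0.015 and Aplnr 0.091. Without the most muscle-rich library of each group, Ptger4 was -0.013, Mc2r -0.11 and Ldhb 0.043. Leaving out each library in turn gave -0.32 to 0.11 for Ptger3, -0.20 to 0.23 for Mc2r, -0.042 to 0.44 for Slc29a1, -0.20 to 0.077 for Alpl, -0.060 to 0.62 for Bdh1, -0.087 to 0.0036 for Ldha, -0.065 to 0.058 for Ldhb, -0.10 to 0.10 for Slc16a1, -0.19 to 0.10 for Mrap, -0.24 to 0.0042 for Abcc4 and -0.14 to 0.091 for Aplnr. The intervals of the members allow changes of the sizes they span, and at 28 counts or fewer per library Gpr3 and Adora2b had too few reads to test.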
